A study of Mus musculus with 20 samples.

Results

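CAG-873 and UBA7173 are 2 genera of the bacterial family Muribaculaceae, and they were the most abundant genera in the feces of the mice studied here. They were chosen by their abundance over all samples, so their high levels are a description and not a finding. In the tables deposited, 2 of the 149 genus entries that had a count in any sample carry these names. They are divided into 4 of the 204 species entries that had a count. CAG-873 held 294682 reads over all samples and UBA7173 held 165743. The family had 8 genus entries and 16 species entries with a count, and the 2 genera made up 49.1% and 27.6% of its pooled reads.

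Muribaculaceae, formerly known as S24-7, belong to the order Bacteroidales and are among the main bacteria of the mouse gut. They are obligate anaerobes that break down complex carbohydrates, from plant fiber and, in some members, from host mucus, and release short-chain fatty acids such as acetate and propionate. Few of them have been cultured. CAG-873 and UBA7173 are placeholder names given to groups of genomes assembled from metagenomes, and what sets their physiology apart within the family is less well described than for named genera such as Duncaniella or Muribaculum.

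Feces of female C57BL/6 mice, housed together, were profiled by sequencing the V4 region of the 16S rRNA gene, which all bacteria carry, and assigning each read to a taxon. FO stands for a cycle of drugs used against colorectal cancer, injected into the abdomen: oxaliplatin (3.5 mg/kg) once, and 5-fluorouracil (50 mg/kg) in 2 doses on successive days. Control mice were given PBS or water on the same schedule by the labels, and PBS by the study's own account of the stool experiment. All feces were taken 5 days after treatment. Each group had 10 samples, 5 from each of 2 batches, E53B and E56A. No sample from before treatment was analysed here, and the labels do not say which mice shared a cage. The p-values below measure the spread between these samples.

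Total counts ran from 17218 to 57415 reads per sample. At the lowest depth, in FO replicate 6, the 95% Wilson interval of the CAG-873 share was 30.03% to 31.4%, and the intervals of the other samples were narrower for both genera. Such intervals cover counting error only. Of the 20 samples, 1 lay nearer to the other group than to its own when set against the group means of the other batch by Bray-Curtis distance. This sample, FO replicate 5, had a distance of 0.126 to the control mean and of 0.273 to the mean of its own group. For control replicate 1 the distances were 0.268 to its own group and 0.292 to the other. Both belong to batch E56A, and the main results are given with and without them. These samples were picked from the same data for lying toward the other group, so values without them favor a difference between the groups and are descriptions, and a p given with one is no independent test. Reads are shares of a fixed total, and bacterial load was not measured in these files, so that fewer bacteria of a genus and more bacteria of other taxa cannot be told apart in a share.

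Both genera were present in every sample. CAG-873 averaged 38.5% ± 8.90 (SD, n = 10) of reads without the drugs and 26.01% ± 5.36 (SD, n = 10) with FO. UBA7173 averaged 23.7% ± 7.83 (SD, n = 10) without the drugs and 13.2% ± 4.17 (SD, n = 10) with FO. CAG-873 was the largest of all genus entries in 8 of 10 control and 10 of 10 FO samples. In the other 2 control samples, replicates 6 and 10 of batch E53B, UBA7173 was the largest. UBA7173 was among the top 2 in 9 control and 6 FO samples and ranked at 3 in the remaining 1 control and 4 FO samples, behind CAG-873 and Bacteroides_H, a genus of the same order outside the family. The genera next in size within the family were far smaller, Duncaniella at a mean of 4.58% of reads and UBA3263 at 4.27%.

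**Figure D1:**
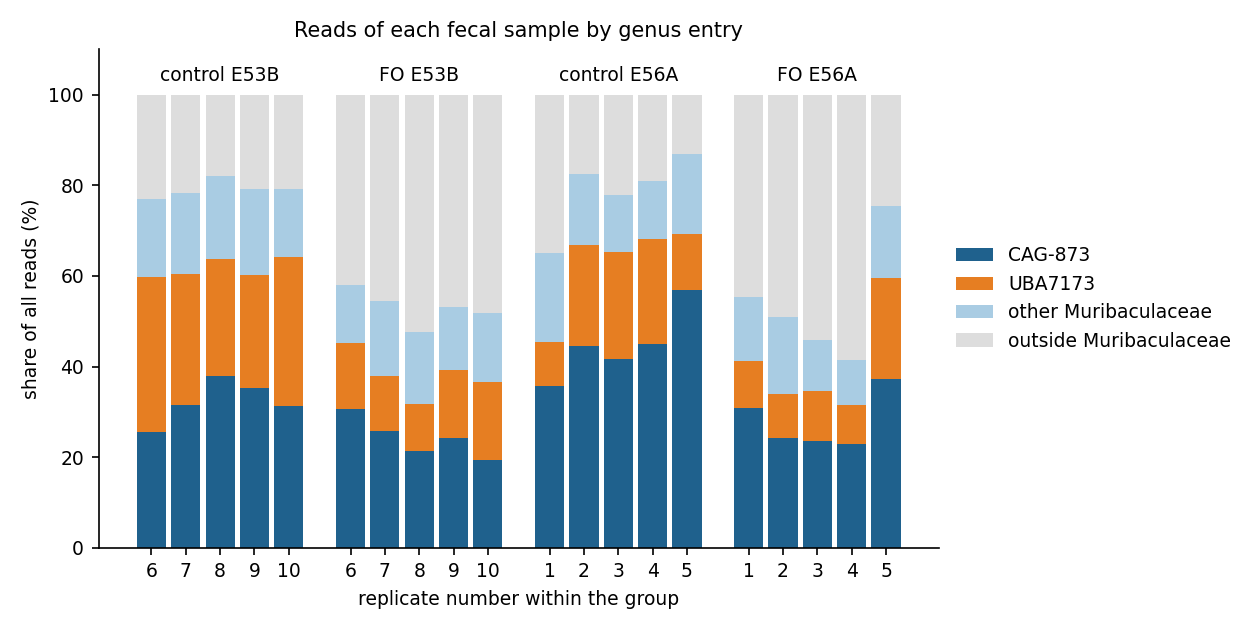
Share of all reads (%) held by CAG-873, UBA7173, the other Muribaculaceae and all other bacteria in each of the 20 samples, one bar per sample. The 2 genera together held 45.3% to 69.3% of reads in control samples and 31.5% to 59.5% in FO samples, with control replicate 1 and FO replicate 5 at the inner ends of these ranges.

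Whether FO changed the shares of the 2 genera was asked first. Both fell. CAG-873 differed by -12.5 percentage points (95% interval -19.5 to -5.74, from inverting the permutation test) and its control mean was 1.48-fold the FO mean. UBA7173 differed by -10.6 percentage points (95% interval -16.4 to -4.64), a fold of 1.80. In the same permutation test of all 34 genus entries with a mean share of at least 0.1%, the adjusted p was 0.00378 for CAG-873 and 0.00512 for UBA7173, and 11.8% of the entries tested were called lower. The other 2 entries called lower were Duncaniella and Muribaculum, both of the same family. For CAG-873, 6 of 10 FO samples were lower than any control sample. For UBA7173 it was 1 of 10, since control replicate 1 had only 9.61%. The ranges overlapped for both, from 25.6% to 56.9% in control and 19.4% to 37.2% in FO samples for CAG-873, and from 9.61% to 34.1% and 8.75% to 22.3% for UBA7173. Without control replicate 1 and FO replicate 5 the differences were -14.1 and -13.1 percentage points (permutation test, unadjusted p = 0.00033 and 0.00014).

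In batch E53B every FO sample held less UBA7173 than any control sample. Its shares in control replicates 6 to 10 were 34.1%, 28.9%, 25.8%, 25.0% and 32.8%. In FO replicates 6 to 10 they were 14.6%, 12.2%, 10.3%, 14.9% and 17.2%. Such a separation was shown by 11.8% of the 34 genus entries in this batch. The difference was -15.5 percentage points (exact permutation test, unadjusted p = 0.00794, the smallest p that 5 against 5 samples can give). CAG-873 had shares of 25.6%, 31.5%, 37.9%, 35.2% and 31.3% in the same control samples and 30.7%, 25.7%, 21.4%, 24.2% and 19.4% in the same FO samples. The groups overlapped, with 3 FO samples below all control samples, and the difference was -8.02 percentage points (exact permutation test, unadjusted p = 0.0238). Adjusted over the 34 entries both passed in this batch, at 0.0150 for UBA7173 and 0.0368 for CAG-873.

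In batch E56A the means of both genera were again lower with FO, and the groups overlapped for both. CAG-873 had shares of 35.7%, 44.6%, 41.7%, 45.04% and 56.9% in control replicates 1 to 5 and 30.8%, 24.2%, 23.6%, 22.8% and 37.2% in FO replicates 1 to 5. In total 4 FO samples lay below all control samples, and the fifth, FO replicate 5, lay above control replicate 1. The difference was -17.1 percentage points (exact permutation test, unadjusted p = 0.0159). UBA7173 had shares of 9.61%, 22.1%, 23.5%, 23.0% and 12.4% in the control samples and 10.4%, 9.81%, 11.1%, 8.75% and 22.3% in the FO samples. The control samples were uneven, with replicates 1 and 5 close to the FO samples, and FO replicate 5 stood with the other 3 control samples. The difference of -5.66 percentage points did not pass (exact permutation test, unadjusted p = 0.135). Leaving out control replicate 1 and FO replicate 5, which were chosen for lying toward the other group, made it -10.2 percentage points (4 against 4 samples) and that of CAG-873 -21.7. Since this choice removes the samples that overlap, no test is given. With all samples and adjustment over the 34 entries neither genus passed in this batch, at 0.0810 for CAG-873 and 0.199 for UBA7173.

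**Figure D2:**
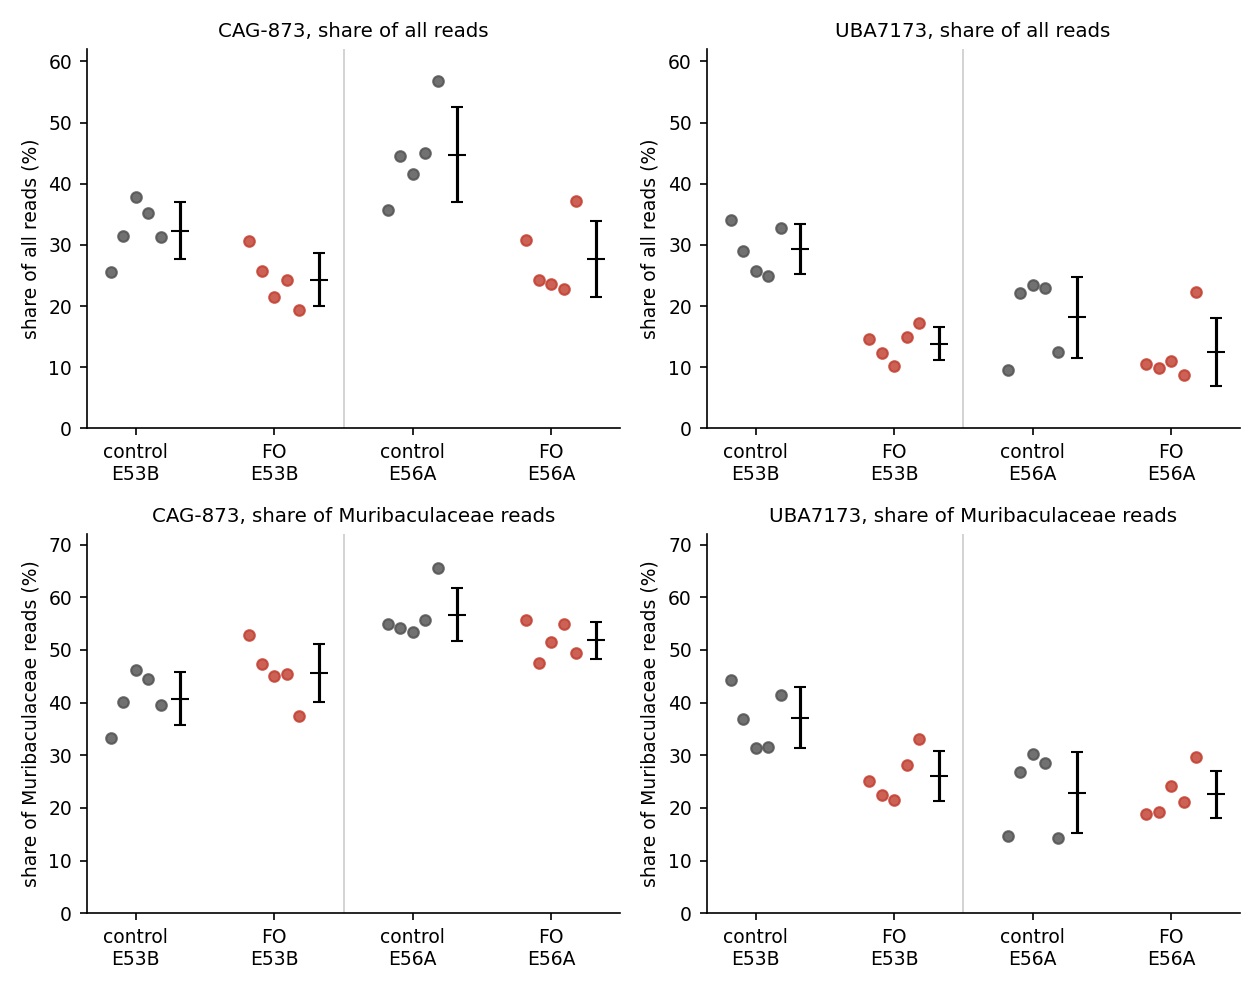
Shares of CAG-873 and UBA7173 among all reads and among Muribaculaceae reads (%), one point per sample in order of replicate number, by group and batch, with mean and SD (n = 5) at the right of each set. Among all reads both genera had lower means with FO in each batch, while among Muribaculaceae reads the CAG-873 mean was higher with FO in E53B and lower in E56A.

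Added together, the 2 genera held 62.3% ± 6.81 (SD, n = 10) of reads in control and 39.2% ± 8.33 (SD, n = 10) in FO samples. This sum went from 61.6% to 38.1% in batch E53B and from 62.9% to 40.2% in batch E56A. In 9 of 10 FO samples it was lower than in any control sample. The other 6 genus entries of the family together held 16.6% ± 2.46 (SD, n = 10) and 14.2% ± 2.32 (SD, n = 10), and reads outside the family rose from 21.1% ± 5.61 (SD, n = 10) to 46.6% ± 9.12 (SD, n = 10). Set against the reads outside the family, which removes the constraint of the total from the ratio, CAG-873 fell by 1.71 on the log2 scale (permutation test, unadjusted p = 7e-05) and UBA7173 fell by 1.97 (unadjusted p = 9e-05). The difference for the sum of the other 6 entries was -1.38.

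The counts were also fitted with edgeR across all genera, with batch as a term and TMM scaling, which sets each genus against the bulk of the others. CAG-873 changed by -1.35 ± 0.22 in log2 (SE, edgeR, adjusted p = 6.87e-05) and UBA7173 by -1.53 ± 0.25 (SE, edgeR, adjusted p = 6.87e-05), beside 11.9% of 59 genera called lower. When counts were scaled by the total alone, the changes were -0.55 ± 0.12 (SE, edgeR, adjusted p = 0.00166) and -0.81 ± 0.19 (SE, edgeR, adjusted p = 0.0024), beside 6.78% called lower. The scaling moved the median change of all genera from 0.23 to 0.99. Relative to that median the changes were -1.58 and -1.55 for CAG-873 and -1.76 and -1.81 for UBA7173. Taking off the median removes most of what a scaling adds to every genus, so the closeness of these values is no test of the scaling. Without control replicate 1 and FO replicate 5 the changes with TMM scaling were -1.61 for CAG-873 and -1.91 for UBA7173 (edgeR, adjusted p = 0.000161 and 4.16e-07). In batch E53B alone CAG-873 changed by -1.37 ± 0.21 (SE, edgeR, adjusted p = 0.000149) and UBA7173 by -2.02 ± 0.22 (SE, edgeR, adjusted p = 1.24e-05), beside 13.1% of 61 genera called lower. In batch E56A alone the changes were -1.41 ± 0.39 (SE, edgeR, adjusted p = 0.149) and -1.14 ± 0.41 (SE, edgeR, adjusted p = 0.155). No genus passed there, 0% of 62 called lower, with 11 at an unadjusted p under 0.05. With total counts alone the changes of CAG-873 and UBA7173 in E53B were -0.41 and -1.08 (edgeR, adjusted p = 0.0263 and 0.000155), beside 5 of 61 genera called lower. In E56A they were -0.69 and -0.54 (edgeR, adjusted p = 0.0555 and 0.259), beside 0 of 62.

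At the level of species each genus was in effect a single entry. All CAG-873 reads were assigned to CAG-873 sp011959565, so its values are those of the genus. Of the UBA7173 reads 165651 were assigned to UBA7173 sp002491305. The other 2 species entries of UBA7173 were rare. UBA7173 sp900540205 had 48 reads in 9 control samples and 41 reads in 8 FO samples, at most 8 in a sample. UBA7173 sp004102805 had 3 reads in 2 control samples of batch E53B and 0 in every FO sample, where a count of 0 allows up to 0.00561% to 0.0174% of a sample's reads. Their counts were too low for a comparison of the groups. In the species table CAG-873 sp011959565 changed by -1.33 ± 0.21 in log2 (SE, edgeR, adjusted p = 7.90e-05) and UBA7173 sp002491305 by -1.53 ± 0.22 (SE, edgeR, adjusted p = 2.53e-05), beside 14.1% of 71 species entries called lower.

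The next comparison asked whether the family's own make-up shifted, by taking each genus as a share of Muribaculaceae reads. CAG-873 held 48.7% ± 9.65 (SD, n = 10) of the family in control and 48.7% ± 5.48 (SD, n = 10) in FO samples. The difference was not detectable, with a 95% interval from -7.40 to 7.34 percentage points (permutation test, adjusted over the 8 genus entries, p = 0.998), which leaves room for sizeable changes. UBA7173 held 30.01% ± 9.87 (SD, n = 10) and 24.3% ± 4.68 (SD, n = 10), a difference that did not pass either (95% interval -12.9 to 1.62, adjusted p = 0.190). These tests and intervals left batch out, so the spread between batches widens them. With permutation within batch the adjusted p was 0.997 for CAG-873 and 0.114 for UBA7173. As a log2 ratio to the other 6 entries, UBA7173 differed by -0.59 (permutation test, unadjusted p = 0.0329) and CAG-873 by -0.33 (unadjusted p = 0.0848). For UBA7173 the batch values were -0.86 in E53B (exact permutation test, unadjusted p = 0.00794) and -0.32 in E56A (unadjusted p = 0.492). Of the family's entries 37.5% were called changed, all of them others. UBA3263 rose from 5.41% to 8.19% of the family (adjusted p = 0.0277), CAG-485 from 2.44% to 3.59% (adjusted p = 0.0259) and the entry of reads placed in the family with no genus from 2.21% to 5.20% (adjusted p = 0.0259). In this order the rises were 1.11, 1.96 and 5.05 percentage points in E53B and 4.43, 0.34 and 0.94 in E56A. Adjusted within a batch, CAG-485 and the reads with no genus passed in E53B (exact permutation test, adjusted p = 0.0317 for both), and none of these entries passed in E56A. The 2 genera together made up 78.7% ± 4.22 (SD, n = 10) and 73.1% ± 4.42 (SD, n = 10) of the family. Without control replicate 1 and FO replicate 5 the difference for UBA7173 was -7.95 percentage points (permutation test, adjusted p = 0.046). These samples were chosen for lying toward the other group, so this value favors a difference and its p is no independent test.

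By batch, the mean family share of CAG-873 moved in opposite directions. In batch E53B the mean share of CAG-873 in the family was 40.7% ± 5.02 (SD, n = 5) in control and 45.6% ± 5.56 (SD, n = 5) in FO samples. In batch E56A it was 56.7% ± 4.98 (SD, n = 5) and 51.8% ± 3.51 (SD, n = 5). Neither change passed (exact permutation test, unadjusted p = 0.230 and 0.111), though 3 of 5 FO samples of batch E56A lay below all of its control samples. UBA7173 went from 37.1% ± 5.77 (SD, n = 5) to 26.1% ± 4.70 (SD, n = 5) in batch E53B (exact permutation test, unadjusted p = 0.0238, adjusted over the 8 entries 0.0635). In batch E56A it was 22.9% ± 7.72 (SD, n = 5) and 22.6% ± 4.44 (SD, n = 5) (exact permutation test, unadjusted p = 0.937). The test of the difference between the batches' effects did not pass for either genus, at -9.75 percentage points for CAG-873 and 10.7 for UBA7173 (exact permutation of batch within treatment, adjusted over the 8 entries p = 0.273 and 0.251). This permutation takes the batches of a group as alike. The control batches differed in these shares, which widens the spread it expects, so it can miss a difference between the effects.

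The balance between the 2 genera was followed as the log2 ratio of CAG-873 to UBA7173 reads, which does not depend on any other taxon. It was 0.76 ± 0.82 (SD, n = 10) in control and 1.02 ± 0.40 (SD, n = 10) in FO samples, and the difference of 0.26 was not detectable (95% interval -0.35 to 0.86, permutation test, unadjusted p = 0.383). It was 0.41 without control replicate 1 and FO replicate 5 (unadjusted p = 0.169). In batch E53B the control samples had ratios of -0.41, 0.12, 0.56, 0.50 and -0.07, and the FO samples of 1.08, 1.07, 1.06, 0.70 and 0.17. In this batch 4 of 5 FO samples lay above all control samples, and the rise was 0.68 (exact permutation test, unadjusted p = 0.0317), in favor of CAG-873. In batch E56A the control samples had ratios of 1.89, 1.01, 0.83, 0.97 and 2.19, and the FO samples of 1.56, 1.30, 1.09, 1.38 and 0.74. There the groups overlapped and the difference was -0.16 (exact permutation test, unadjusted p = 0.603). The 2 effects differed by -0.84, which did not pass (exact permutation of batch within treatment, unadjusted p = 0.153). Here too the gap between the control batches widens the spread that this permutation expects, so it cannot settle whether the effects were alike.

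**Figure D3:**
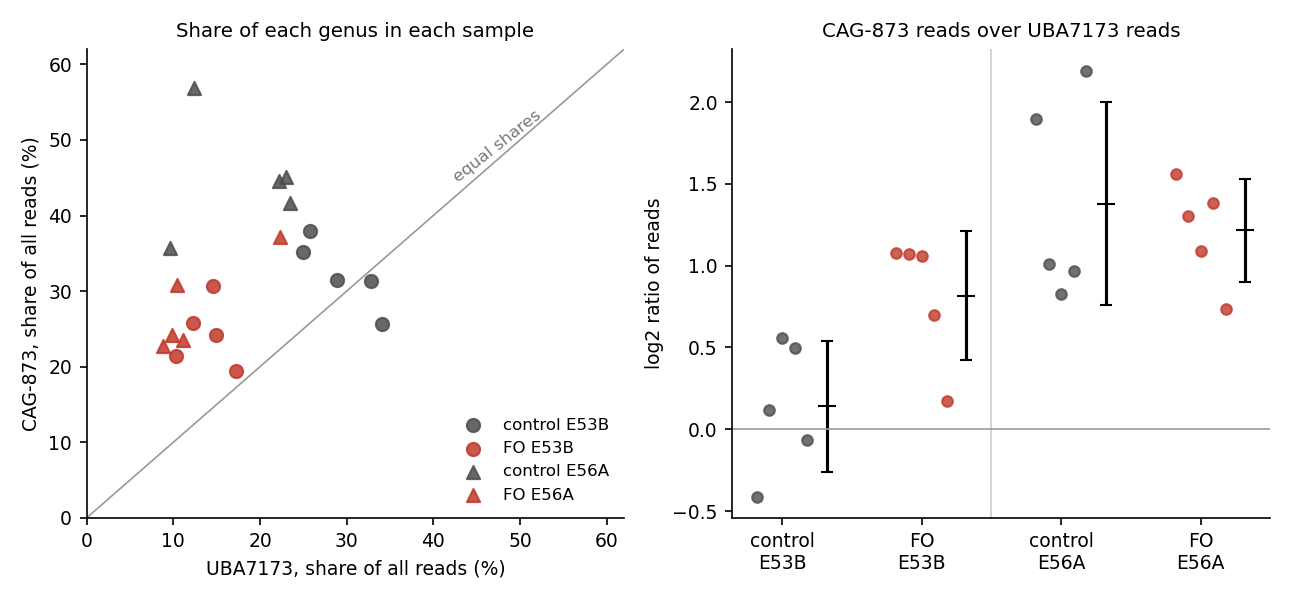
Left, CAG-873 share against UBA7173 share of all reads (%), one point per sample, circles for batch E53B and triangles for E56A, with a line of equal shares. Right, the log2 ratio of CAG-873 to UBA7173 reads by group and batch with mean and SD (n = 5), from -0.41 to 0.56 in control E53B samples and from 0.83 to 2.19 in control E56A samples.

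The control mice of the 2 batches differed in the balance of the 2 genera. CAG-873 made up 32.3% ± 4.64 (SD, n = 5) of reads in control samples of batch E53B and 44.8% ± 7.71 (SD, n = 5) in those of batch E56A (exact permutation test, unadjusted p = 0.0159). UBA7173 made up 29.3% ± 4.07 (SD, n = 5) and 18.1% ± 6.59 (SD, n = 5), and its control batches did not overlap (unadjusted p = 0.00794). Such a separation was seen in 8.82% of the 34 genus entries, and adjusted over them neither genus passed (exact permutation test, adjusted p = 0.108 for CAG-873 and 0.0899 for UBA7173). The log2 ratio of the genera was 0.14 ± 0.40 (SD, n = 5) in E53B and 1.38 ± 0.62 (SD, n = 5) in E56A, with no overlap (exact permutation test, unadjusted p = 0.00794). As shares of the family both genera passed (exact permutation test, adjusted over the 8 entries p = 0.0317 for each), and these 2 were the 25% of entries called. E56A minus E53B was 16.0 percentage points for CAG-873 and -14.2 for UBA7173. In the species table, which holds nearly the same reads, the adjusted p over 13 entries was 0.0516 for both, which did not pass. When control replicate 1 was left out, CAG-873 still passed among the 8 entries and UBA7173 did not (exact permutation test, adjusted p = 0.0317 and 0.0635). The sum of both genera was 61.6% ± 2.11 (SD, n = 5) of all reads in E53B and 62.9% ± 9.94 (SD, n = 5) in E56A. These means were close through control replicate 1 alone, for the other 4 control samples of E56A held 65.2% to 69.3%, above the 59.7% to 64.1% of E53B. The study describes these data as coming from independent experiments, and which features of an experiment (mice, time or sequencing) go with the batch names cannot be told apart.

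In FO samples the batch means were closer together. CAG-873 made up 24.3% ± 4.35 (SD, n = 5) in E53B and 27.7% ± 6.19 (SD, n = 5) in E56A (exact permutation test, unadjusted p = 0.341), and UBA7173 13.8% ± 2.67 (SD, n = 5) and 12.5% ± 5.56 (SD, n = 5) (unadjusted p = 0.651). The log2 ratio was 0.82 ± 0.39 (SD, n = 5) and 1.22 ± 0.32 (SD, n = 5) (unadjusted p = 0.111). Whether the FO effect differed between batches was tested directly, and in edgeR 0% of 59 genera passed, with 6 at an unadjusted p under 0.05 (1 passed with DESeq2 and 1 with limma on centred log ratios). The interaction was -0.30 ± 0.44 in log2 for CAG-873 (SE, edgeR, adjusted p = 0.840) and 0.64 ± 0.47 for UBA7173 (SE, edgeR, adjusted p = 0.717). On the shares of all reads it was -9.03 percentage points for CAG-873 and 9.80 for UBA7173 (exact permutation of batch within treatment, with the limit given above, unadjusted p = 0.177 and 0.0819). Without control replicate 1 and FO replicate 5 it was -13.7 for CAG-873 (exact permutation test, unadjusted p = 0.0355) and 5.21 for UBA7173 (unadjusted p = 0.294).

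The control batches were also compared with edgeR. In the species table CAG-873 sp011959565 was higher in E56A by 1.09 ± 0.29 in log2 (SE, edgeR, adjusted p = 0.0314), beside 4.23% of 71 species entries called higher. In the genus table, which holds the same reads for it, CAG-873 was higher by 0.93 ± 0.31 and did not pass (SE, edgeR, adjusted p = 0.141), beside 1.69% of 59 genera called higher. The call in the species table was kept in 6 of 20 fits that left out 1 sample and lost in the others. It was also lost under each other alternative run, at 0.47 with total counts alone (edgeR, adjusted p = 0.242), 0.56 with no filter (edgeR, adjusted p = 0.381), 0.81 with DESeq2 (adjusted p = 0.145), 0.78 with limma (adjusted p = 0.297) and 0.89 without control replicate 1 and FO replicate 5 (edgeR, adjusted p = 0.0527). UBA7173 differed by -0.35 ± 0.33 in the genus table (SE, edgeR, adjusted p = 0.488), and by -0.69 ± 0.27 with total counts alone (SE, edgeR, adjusted p = 0.280).

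The 2 genera were then set beside the other members of their family. Of the other 6 genus entries 4 fell with FO in edgeR. Muribaculum, whose species M. intestinale has been cultured from mice, changed by -1.73, Paramuribaculum by -1.55, Duncaniella by -1.51 (adjusted p = 0.000293, 0.0163 and 6.87e-05) and CAG-485 by -0.86 (edgeR, adjusted p = 0.0269). UBA3263 had a change of -0.64 (adjusted p = 0.0552) and the reads with no genus one of -0.04 (adjusted p = 0.921). With total counts alone 2 of the 6 fell, Muribaculum and Duncaniella, while the changes of CAG-485, UBA3263 and the reads with no genus were -0.04, 0.08 and 0.64 and did not pass. In batch E53B alone 5 of the 6 fell and in E56A alone 0, and 3 fell without control replicate 1 and FO replicate 5. Over all genera, which include the family's entries, 7 of 59 were called lower with TMM scaling and 4 of 59 with total counts. It was 8 of 61 in E53B alone, 0 of 62 in E56A alone and 6 of 61 without those samples. CAG-873 and UBA7173 were called lower under both scalings.

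**Figure D4:**
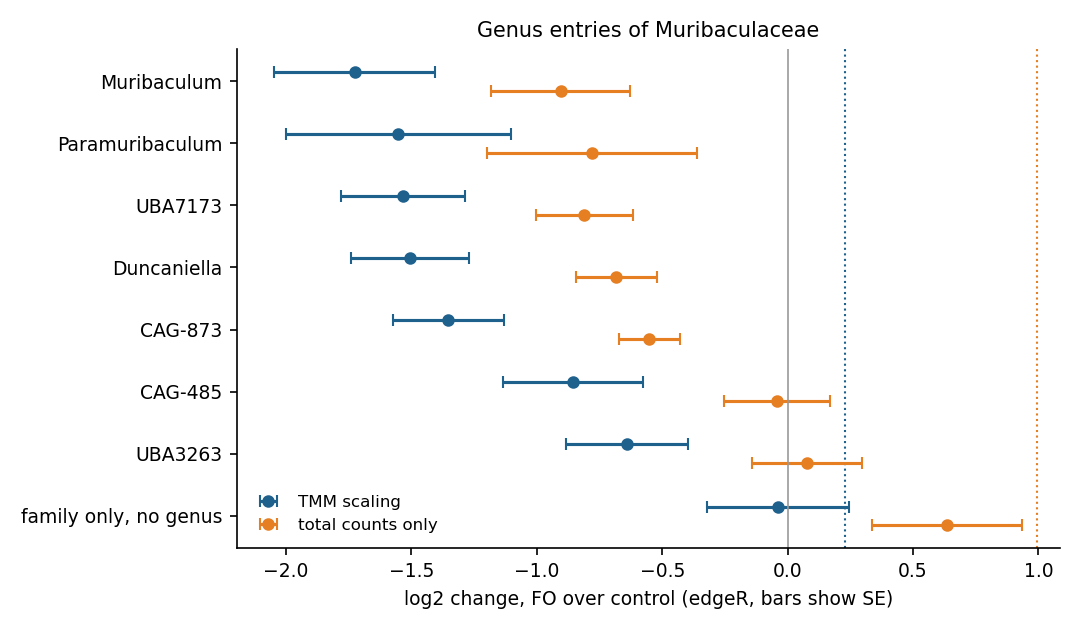
Log2 change, FO over control, of the 8 genus entries of Muribaculaceae in edgeR with TMM scaling and with total counts only, with SE bars. Dotted lines mark the median change of the 59 genera tested, 0.23 with TMM scaling and 0.99 with total counts, and all 8 entries lie below them under each scaling.

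Ratios between entries of the family show unequal change within it and need no scaling. All 28 pairs of the 8 entries were tested, and 53.6% passed a 5% false discovery rate. Of the 7 pairs that hold CAG-873, 2 passed. CAG-873 fell against CAG-485 by 0.51 on the log2 scale (permutation test, adjusted p = 0.0345) and against the reads with no genus by 1.26 (adjusted p = 0.0118). Of the 7 pairs that hold UBA7173, 3 passed. UBA7173 fell against UBA3263 by 0.88 (adjusted p = 0.0257), against CAG-485 by 0.77 (adjusted p = 0.043) and against the reads with no genus by 1.51 (adjusted p = 0.0118). Against Duncaniella, Muribaculum and Paramuribaculum the changes of both genera ran from -0.15 to 0.70 and did not pass. Pairs of which neither genus is part passed in 10 of 15 cases. In batch E56A alone 0 of 28 pairs passed. The change between UBA7173 and the reads with no genus was -2.39 in batch E53B and -0.64 in batch E56A, and these differed by 1.75 (exact permutation of batch within treatment, adjusted over the 28 pairs p = 0.0488). Such a difference was called in 10.7% of the pairs. It was 0.81 without control replicate 1 and FO replicate 5 and did not pass (exact permutation test, adjusted p = 0.0867).

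**Figure D5:**
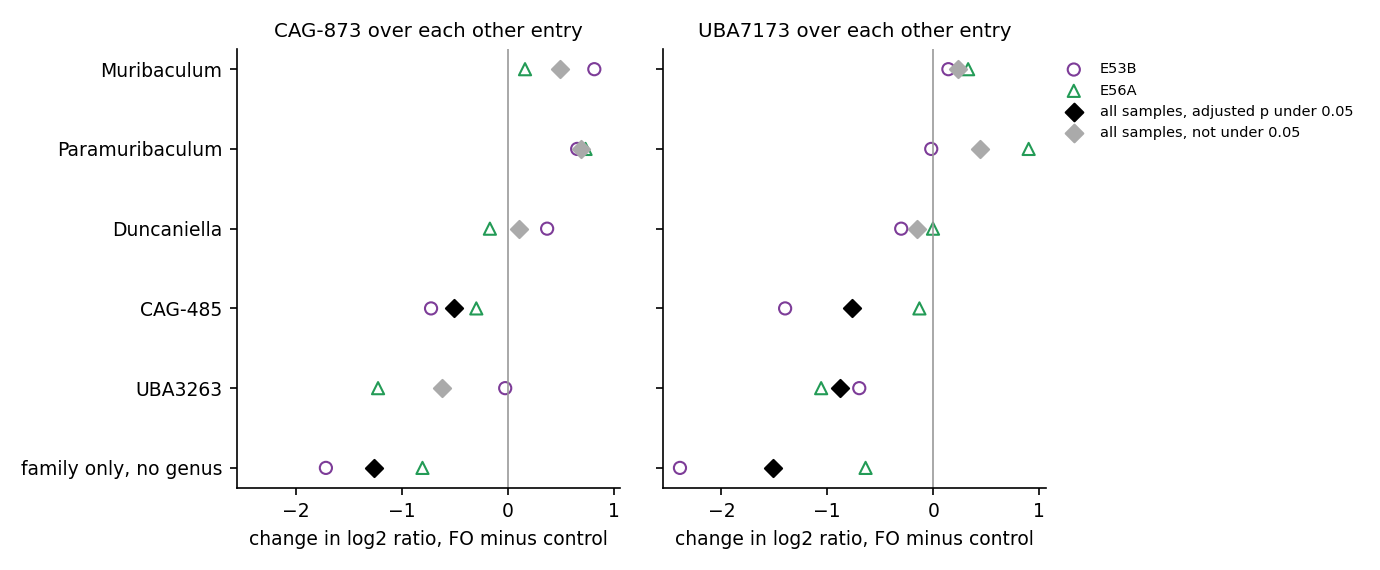
Change in the log2 ratio of CAG-873 (left) and UBA7173 (right) to each other genus entry of the family, FO minus control. Diamonds stand for all samples, black where the adjusted p is under 0.05, and open symbols for each batch. The reads with no genus lie furthest to the left for both, at -1.26 and -1.51.

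Of 13 species entries with a mean share of at least 0.1% of the family, 46.2% changed their share of it (permutation test, Benjamini-Hochberg adjusted). CAG-873 sp011959565 (adjusted p = 0.998) and UBA7173 sp002491305 (adjusted p = 0.221) were not among them, although the latter had the largest difference in percentage points of the 13, at -5.67. Within the genus Duncaniella, D. dubosii fell from 3.20% to 1.85% of the family (adjusted p = 0.00539) while D. freteri rose from 0.311% to 0.669% (adjusted p = 0.00539). CAG-485 sp900547755 rose from 0.908% to 1.81% (adjusted p = 0.00581) and Muribaculum gordoncarteri fell from 0.285% to 0.0692% (adjusted p = 0.00611). UBA3263 sp001689615 and the reads with no genus, which hold the same reads as their genus entries, also rose.

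Within a group the 2 genera were compared on centred log ratios, which set each against the average genus of the sample. In the control group Pearson's r was 0.165 (permutation p = 0.571) and Spearman's rho 0.0909 (permutation p = 0.810). In the FO group r was 0.760 (permutation p = 0.0118, adjusted over 4 relations 0.047) and rho 0.624 (permutation p = 0.0593, adjusted 0.119). Without the 2 samples farthest from the median of CAG-873, an omission that also narrows the range, r was 0.328 among control and 0.216 among FO samples. With batch means removed and permutation within batches, the r on centred log ratios was 0.573 in the control group (exact permutation p = 0.224, adjusted 0.299) and 0.816 in the FO group (exact permutation p = 0.00785, adjusted 0.0314). On shares of all reads, the other 2 of the 4 relations, the FO group had an r of 0.521 (permutation p = 0.122, adjusted 0.163) and a rho of 0.261 (permutation p = 0.468, adjusted 0.624). In the control group r was -0.675 (permutation p = 0.0334, adjusted 0.0668) and rho -0.782 (permutation p = 0.0105, adjusted 0.042). The control batches did not overlap in UBA7173, and with batch means removed the r of the control shares was -0.270 (exact permutation p = 0.576, adjusted 0.576), so that this relation did not hold within batches. Without the 2 farthest samples the r of the shares was -0.323 among control and 0.0387 among FO samples. Each of the 4 relations thus moved with this omission.

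The genera whose centred log ratios ran most like those of the members were found by the mean of the Spearman rho within the control and within the FO group, over the 34 genus entries and 10 samples per group, as a description. For CAG-873 they were CAG-485 (mean rho 0.588), Duncaniella (0.521) and Turicibacter (0.509), the last a genus outside the family. For UBA7173 they were CAG-485 (0.588), Muribaculum (0.570) and UBA3263 (0.491), all of the family. The mean rho between CAG-873 and UBA7173 themselves was 0.358. These points share their samples, depth and reference, and batch may enter all of them.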

How the data were processed

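Feces of 10 control and 10 FO mice, in 2 batches per the labels, were profiled by 16S rRNA gene sequencing. The authors amplified the V4 region, sequenced it on an Illumina MiSeq, demultiplexed the reads (bcl2fastq 2.2 per the submitters' processing notes), trimmed them with cutadapt, merged and chimera-checked them with vsearch in QIIME2, and assigned operational taxonomic units with a classifier trained on Greengenes2. They deposited whole-number read counts per taxon and sample, without normalization, of which the family, genus and species tables were used. Shares of 16S reads are not corrected for the number of gene copies per genome, so they are not shares of cells. A taxon's share also moves with primer fit and with how the classifier names close relatives.

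The members were the columns named CAG-873 or UBA7173 within Muribaculaceae, including every species entry with a count. The members and lists were chosen with earlier results of these data known. Every species entry of both genera was named, as was every other genus entry of the family with a mean share of at least 0.1% of reads in either group. For likeness, the 3 entries with the highest mean rho were named. Replicate numbers follow accession order and pair no samples. All 90 pairs of samples within a group differed by more than counting noise (lowest chi-square 6.51 per degree of freedom).

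Shares, family shares and log2 ratios were compared by two-sided permutation tests with 100000 resamples, and within a batch by exact enumeration. The ratios were taken on counts as they stood, and a pseudocount of 0.5 was used for log2 shares. The tests of FO against control over all samples, and their intervals, left batch out. Differences between batch effects were tested by exact permutation of batch labels within treatment. This takes the batches of a group as alike, so a batch difference within a group widens the spread it expects. Counts were fitted with edgeR 4.0.16 (quasi-likelihood test, TMM, filterByExpr, batch as a term), and p-values were adjusted by Benjamini-Hochberg over all entries tested, with a threshold of 0.05. On simulated counts of the FO and control comparison of genera (median of 58.5 genera tested), edgeR recovered 80.1% of genera changed 4-fold, with 0 of the wrong sign and 5.65% of calls false. That simulation had 10 samples per group, so it does not give the recovery of smaller changes or within a single batch. Alternatives used total counts, RLE factors, no filter, DESeq2 1.42.0, limma 3.58.1 on centred log ratios, a fit that omitted the batch term, the batches taken singly, the omission of single samples, medians, log2 shares, samples drawn down to 17218 reads, permutation within batch and the methods' unpaired t test. The fits without control replicate 1 and FO replicate 5 together, the ratios of pairs, the test over 34 genus entries, the intervals, the correlations within batches and the comparisons of batch E56A and of the control batches without these samples were added after seeing the data. So were the test of the difference between the batches' effects on the ratio of the 2 genera, and the omissions of single samples in the comparison of control batches. The software was R 4.3.3 and Python 3.11.15 with scipy 1.17.1, numpy 2.4.6, pandas 2.3.3 and matplotlib 3.10.9. No sequences of the taxa were used here, nor was the mouse genome.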

Additional observations from a re-analysis of the deposited data

Results flagged for a closer look

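In 7 measures of the 2 genera, the groups of 10 samples were searched for a sample far from the rest, and 2 of 14 had one, where chance alone gives about 0.70. Control replicate 1 had the lowest share of both genera together in its group, 45.3%, against 64.1% ± 3.53 (SD, n = 9) in the other control samples. FO replicate 5 had the highest in its group, 59.5%, against 36.9% ± 4.54 (SD, n = 9) in the other FO samples. Both come from batch E56A. In the remaining measures, which include each genus alone, no sample lay that far out.

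The change of UBA7173 against the Muribaculaceae reads with no genus differed between the batches by 1.75 on the log2 scale, from -2.39 in E53B to -0.64 in E56A (exact permutation of batch within treatment, adjusted over 28 pairs p = 0.0488). The difference had the same sign in each of 20 fits that left out 1 sample, from 1.18 to 1.96, but passed in 6 of them when adjusted over the 28 pairs (exact permutation test, adjusted p from 0.0215 to 0.138). Without control replicate 1 and FO replicate 5 it was 0.81 and did not pass (adjusted p = 0.0867).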

How the results depend on the processing

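The fall of CAG-873 in edgeR ran from -1.65 to -1.29 in log2, and that of UBA7173 from -1.81 to -1.41, in the fits that each left out 1 sample, with every adjusted p under 0.05. In batch E56A alone the changes of -1.41 (CAG-873, adjusted p = 0.149) and -1.14 (UBA7173, adjusted p = 0.155) did not pass, nor did the UBA7173 share of all reads, at -5.66 percentage points (exact permutation test, p = 0.135). Batch E53B, with as many samples, had 12 genera called. In batch E56A alone 0 genera, 0 species entries and 0 pairs of family entries passed. Leaving out 1 sample, the differences in share ran from -14.0 to -10.5 percentage points for CAG-873 and from -12.1 to -9.41 for UBA7173, and all passed. Total counts alone gave 29 genera and 35 species entries changed with FO instead of 13 and 17. Leaving out 1 sample gave 6 to 18 genera and 13 to 21 species entries, and 10 to 17 pairs. The count of genera was 6 without control replicate 8, 7 without control replicate 5 or 9, and 8 without control replicate 2 or FO replicate 4.

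The CAG-873 share of the family, -0.0103 percentage points over all samples, had the opposite sign on the log2 scale (0.0173), in batch E53B (4.87) and without control replicate 1 and FO replicate 5 (0.594), and ran from -1.73 to 1.85 with 1 sample left out, never passing. The UBA7173 family share passed without those 2 samples, an omission that favors a difference, at -7.95 percentage points. It did not pass with any single sample left out (-7.41 to -4.08). The log2 ratio of the genera passed in batch E53B alone (0.68) and had the opposite sign in E56A (-0.16), with a range of 0.13 to 0.42 when 1 sample was left out. For the difference between batch effects, DESeq2 and limma each called 1 genus and 2 species entries, and total counts and the fit without those 2 samples 1 species entry each, where edgeR called 0. Between control batches 3 species entries differed, but 1 with total counts or limma and 1 to 4 with 1 sample left out (1 without control replicate 7 or 8); CAG-873 sp011959565, at 1.09, did not pass in 14 of 20 such fits (0.72 to 1.47), nor under any alternative of scaling, filter or tool that was run. The cause of these shifts was not tested. No paired analysis was possible because the replicate numbers were given in accession order and name samples only. Depth limits the rare UBA7173 species entries alone.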
